A study of Mus musculus with 6 samples.

Results

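Tuba1b and Actb are the cytoskeleton genes among the 15 genes whose messenger RNA probe carries a RefSeq accession on this array. Their spots were found by accession, NM_011654.2 for Tuba1b and NM_007393.3 for Actb, which gave 1 probe for each gene and 20 spots of that probe on every array. The pair was chosen with the difference between prenatal and adult liver already known, so that difference and the comparison of both genes are given as descriptions, without a p-value. Of 72 cytoskeleton genes listed for this report (tubulins, actins, their binding proteins and intermediate filament genes), these 2 had a named probe, and the others were not analysed here.

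Tuba1b encodes an alpha tubulin, which pairs with beta tubulin to build microtubules, the tracks of intracellular transport and the fibres of the mitotic spindle. Actb encodes cytoplasmic beta actin, which polymerises into the filaments of the cell cortex and, in hepatocytes, of the border of the bile canaliculi. The fetal liver is a growing organ that also houses blood formation, whereas the adult liver holds mostly resting hepatocytes. Actb is widely used as a reference gene for normalisation, and Tuba1b belongs to a family of alpha tubulins with nearly the same protein sequence. Hybridisation of the Tuba1b and Actb probes with transcripts of related genes was not examined, because probe sequences were not used here.

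The samples were liver total RNA of C57BL/6 mice, bought from a supplier, and each was labelled with Cy3 and hybridised to its own single-colour array. The prenatal group held 3 samples from embryonic day 18 (their description names a stage slightly past that day). The adult group held 3 samples from 2-month animals. According to the series, each group came from 3 different animals. The tissue field of the prenatal samples reads embryo, while their titles and source names read liver. Of 8 hepatocyte genes listed as markers, none had a named probe, so the labelled tissue was not checked against them. Values are log2 spot signals minus the log2 of the 75th percentile of that array, so 1 unit is a doubling. An array had 61500 spots that were not controls, of which 45.1% to 60.5% were well above background by the scanner's flag. The raw 75th percentile, a measure of array brightness, ranged from 69.4 to 151.9. Over probes with a value on every array, correlations ran from 0.893 to 0.983 among prenatal arrays and from 0.967 to 0.983 among adult arrays. Results are also given without prenatal replicate 1, the only prenatal array of its scan date. Adult replicate 3 was likewise the only adult array of that date.

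Tuba1b was higher before birth on every array. Its normalised log2 signal was 10.70 on prenatal replicate 1, 9.97 on replicate 2 and 10.14 on replicate 3. In adult liver it was 7.56, 7.63 and 7.24 on replicates 1, 2 and 3. The groups did not overlap, and the lowest prenatal array lay 2.34 above the highest adult array, a gap of 5.05-fold. The prenatal mean was 10.27 ± 0.38 (SD, n = 3), and the adult mean was 7.48 ± 0.21 (SD, n = 3). The log2 difference, adult minus prenatal, was -2.79 with a standard error of 0.29 in the limma fit over all tested probes. Its 95% interval, -3.49 to -2.10, put the adult level at 0.0891 to 0.234 of the prenatal level. Without prenatal replicate 1, which had the highest Tuba1b signal, the difference was -2.58.

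The spots behind these Tuba1b means are technical repeats within the same arrays and show how wide each reading was. The lowest prenatal spot had a log2 signal of 9.93 and the highest adult spot 7.68. Before scaling, the median spot had an intensity of 122584, 152278 and 92845 on prenatal replicates 1, 2 and 3. On adult replicates 1, 2 and 3 it was 21509, 13817 and 11900. The brightest Tuba1b spot reached 19.9% of the scanner's saturation value, and no spot was saturated. At the other end, the negative probes that the array design places among the ordinary spots had a median intensity of 2.47 to 3.57 per array, so Tuba1b was read far from both limits.

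Actb showed no such separation. Its log2 signal was 2.83, 3.83 and 3.07 on prenatal replicates 1, 2 and 3. The adult values were 3.66, 2.60 and 2.59. The groups overlapped: adult replicate 1 was higher than prenatal replicates 1 and 3, and the other adult arrays were the lowest of the 6. The prenatal mean of 3.25 ± 0.52 (SD, n = 3) and the adult mean of 2.95 ± 0.62 (SD, n = 3) differed by -0.30 (adult minus prenatal), with a standard error of 0.42. The 95% interval ran from -1.30 to 0.71, so an adult level anywhere from 0.405 to 1.63 times the prenatal level was compatible with these arrays. This interval is too wide to show that Actb was stable. The value also rested on single arrays: it was -0.0054 without prenatal replicate 2, -0.12 without adult replicate 2 or adult replicate 3, -0.50 without prenatal replicate 1 and -0.65 without adult replicate 1.

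**Figure D1:**
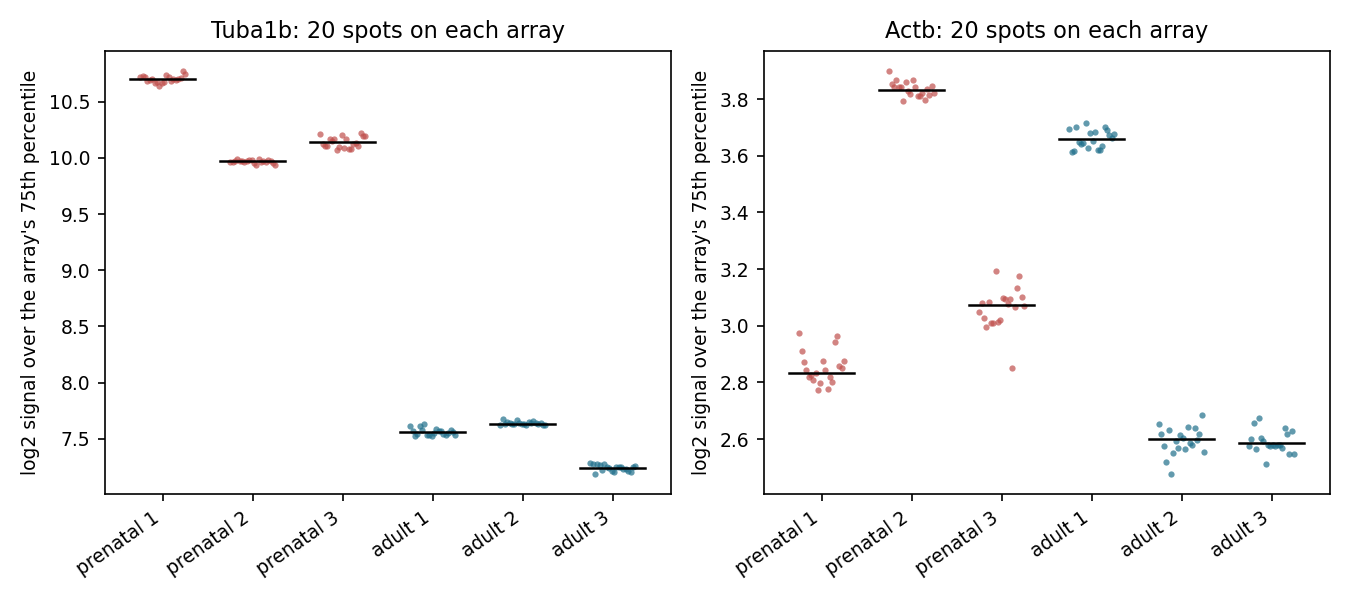
Normalised log2 signal of each of the 20 spots of Tuba1b (left) and Actb (right) on the 3 prenatal (red) and 3 adult (blue) arrays, with a black line at the mean of the spots without an outlier flag; the vertical axes differ. Tuba1b falls into an upper prenatal and a lower adult block, while the Actb arrays of both groups interleave and the spots of an array lie close together.

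Over the whole array, 27.8% of 32336 tested probes passed a limma adjusted p of 0.05, 12% in the prenatal direction, and for 47.6% of 32250 probes with a value on every array the groups did not overlap (20.5% with the prenatal values higher). Tuba1b was past both marks and Actb past neither, but nothing is read from this because the genes were chosen on this contrast. The Tuba1b difference was larger in size than that of 91.2% of tested probes and the Actb difference larger than that of 23.4%. Among the 15 genes with an accession, Tuba1b ranked 2 and Actb ranked 12 by the size of the difference.

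The repeated spots set the spread within an array apart from the spread between arrays. Between the unflagged spots of one array, the SD of the log2 signal was 0.010 to 0.049 for Tuba1b and 0.022 to 0.055 for Actb. Between the arrays of a group, the pooled SD was 0.31 for Tuba1b and 0.57 for Actb, which is 11.3 and 16.4 times the median spot SD. Spots of one array share RNA, labelling and hybridisation but lie at different places on it. The spot SD thus covers differences between spots within an array, and these ratios do not tell biological from technical differences between arrays. With flagged spots kept, the highest Actb spot SD was 0.073, on prenatal replicate 3, instead of 0.055. All 120 Actb spots were well above background, and the lowest had an intensity of 386 on adult replicate 2. On prenatal replicate 2 the median Actb spot stood at 2172, and on adult replicate 1 at 1442, against 419 to 699 on the other arrays. Spot spread itself was the measure that the choice of genes did not use. For Tuba1b its mean was 0.031 on prenatal and 0.021 on adult arrays (exact two-sided permutation p = 0.4, adjusted over the 2 genes 0.7). For Actb it was 0.038 and 0.033 (exact two-sided permutation p = 0.7, adjusted 0.7). The smallest p that 3 against 3 arrays allow is 0.1, so this design could not have shown a difference in spot spread.

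A ratio of Tuba1b to Actb within an array does not depend on how the array is scaled by a constant. The log2 ratio was 7.87, 6.14 and 7.07 on prenatal replicates 1, 2 and 3. On adult replicates 1, 2 and 3 it was 3.90, 5.04 and 4.66. Within each group the ratio fell as the raw 75th percentile rose. That percentile was 73.7, 83.1 and 151.9 on prenatal replicates 1, 3 and 2. On adult replicates 2, 3 and 1 it was 69.4, 78.4 and 114.3. The part of array brightness in the ratio was not tested. Every prenatal ratio was above every adult ratio, and the means were 7.02 ± 0.87 (SD, n = 3) and 4.53 ± 0.58 (SD, n = 3). The ratio was thus 5.63-fold higher before birth, a log2 change of -2.49 with a standard error of 0.60. Because the probes of the genes may bind their targets with different strength, the ratio itself says nothing about which transcript was more abundant, and its change shows only that the genes changed unequally. The change was -2.07 without prenatal replicate 1.

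Ratios to the other genes restate the differences between the groups on a scale free of the array percentile, and add no independent support. They follow from the order of the genes: Tfrc alone had a more negative difference than Tuba1b, while Actb lay near the middle. Set against each of the other 14 genes in turn, Tuba1b was relatively higher before birth for 13 of them, and for all 14 the prenatal and adult ratios did not overlap. The exception in direction was Tfrc, the transferrin receptor that takes up iron, against which Tuba1b was 0.83 (log2) higher in the adult. Against Gapdh, a glycolytic enzyme often used as a reference, the log2 change of Tuba1b was -2.89. Some of the 14 genes were read near background. The median spot of Ldhal6b had an intensity of 17.6 on prenatal replicate 1, where 15 of 20 spots were well above background. For G6pd2 on adult replicate 2 it was 23.9, with 17 of 20. For Actb, the ratio was higher before birth against 8 genes and higher in the adult against 6, with changes from -3.05 to 3.32. The Actb ratios did not overlap between the groups for 5 of the 14 genes. These were Tuba1b and Tfrc, against which Actb was relatively higher in the adult, and B2m, Hsp90ab1 and Gusb, against which it was relatively higher before birth. B2m (a subunit of MHC class I), Hsp90ab1 (a cytosolic heat shock protein) and Gusb (a lysosomal enzyme) were named after their values were seen. Against Gapdh the Actb ratio changed by -0.40 with overlapping groups. For ratios, the share without overlap over all probes was not computed. For single values the groups did not overlap for 47.6% of 32250 probes, so nothing is read from the counts of ratios without overlap.

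**Figure D2:**
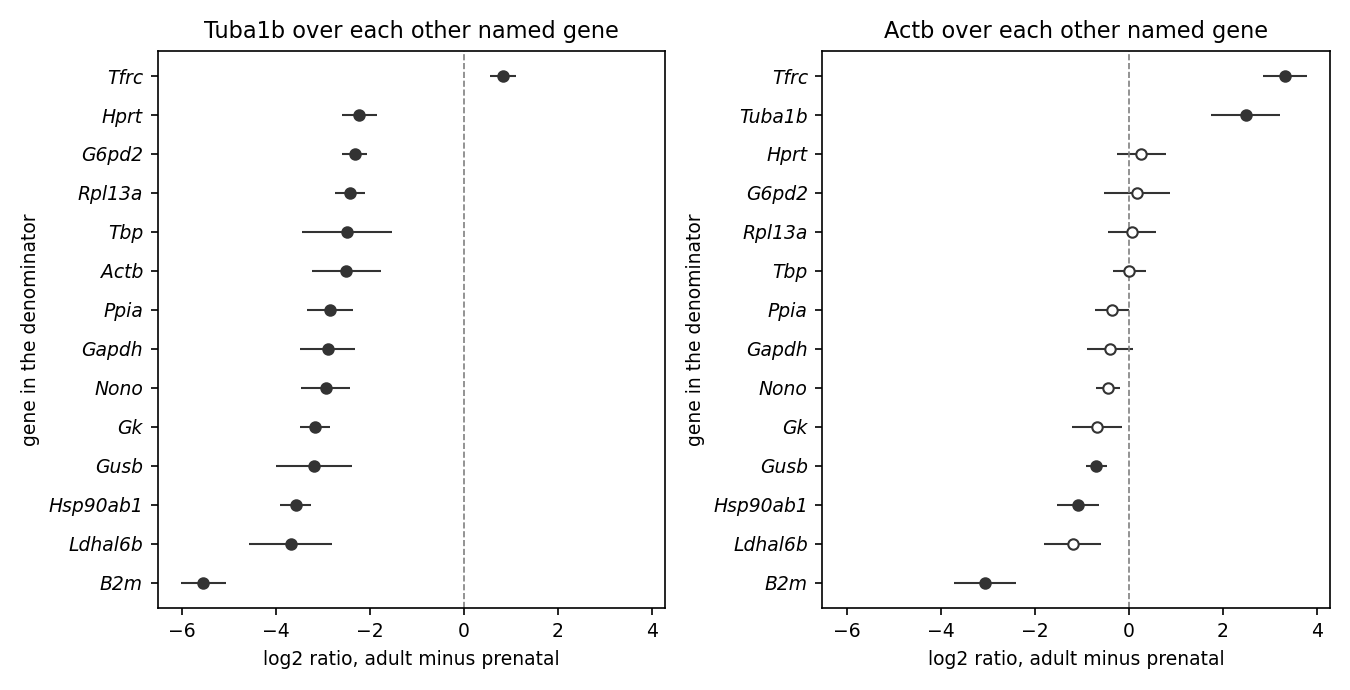
Change of the within-array log2 ratio, adult minus prenatal, of Tuba1b (left) and Actb (right) over each of the 14 other genes with an accession; bars are the pooled SD between the arrays of a group (n = 3 each), and filled points mark ratios whose groups do not overlap. All Tuba1b ratios but that to Tfrc lie between -5.54 and -2.22, whereas the Actb ratios lie on both sides of 0, from -3.05 to 3.32.

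The highest Actb values came from the 2 brightest arrays. These were prenatal replicate 2, with a raw 75th percentile of 151.9, and adult replicate 1, with 114.3, and each Actb value is already divided by that percentile. As a description over the 6 arrays, computed after the values had been seen, Actb and the log2 of the 75th percentile had a Pearson r of 0.949 and a Spearman rho of 0.829. Without those 2 arrays r was 0.652, so the relation rested largely on them. Actb was not alone in this: of the 15 genes with an accession, 5 were highest on the same 2 arrays, the others being Tbp, Nono, Ppia and Gusb, with r of 0.872, 0.827, 0.749 and 0.721. Tuba1b had an r of 0.144 and a rho of -0.086, and an r of 0.294 without the same arrays. The group difference makes up most of the Tuba1b spread, so these values do not show how it followed brightness within a group. With both measures taken as deviations from their group means, r was -0.545 for Tuba1b and 0.947 for Actb. The part of array brightness in the spread of Actb or of Tuba1b was not tested.

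**Figure D3:**
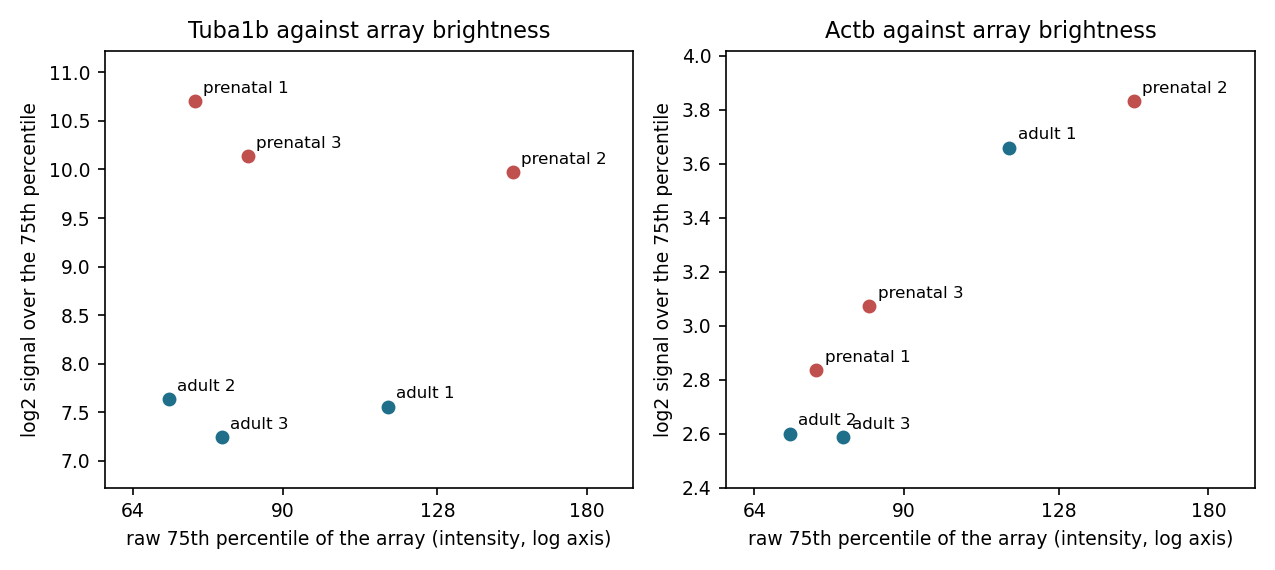
Normalised log2 signal of Tuba1b (left) and Actb (right) against the raw 75th percentile of each array on a log axis, for 3 prenatal (red) and 3 adult (blue) arrays. Actb is highest on the brightest arrays of both groups, prenatal replicate 2 and adult replicate 1. The Tuba1b arrays separate by group, and the part of array brightness in either gene was not tested.

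The arrays were scanned on 2 dates, per the scanner output. One date held prenatal replicates 2 and 3 with adult replicates 1 and 2, and the other held prenatal replicate 1 with adult replicate 3. Within the first, the Tuba1b difference was -2.46 (standard error 0.23), and within the second, which has 1 array a group and no error, it was -3.46. For Actb the same differences were -0.32 (standard error 0.48) and -0.25. The ratio of Tuba1b to Actb changed by -2.14 and -3.21. Each date held equal numbers of both groups, so the scan date as a block could not move the differences of -2.79 and -0.30. It changed only their standard errors, to 0.28 and 0.37.

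**Figure D4:**
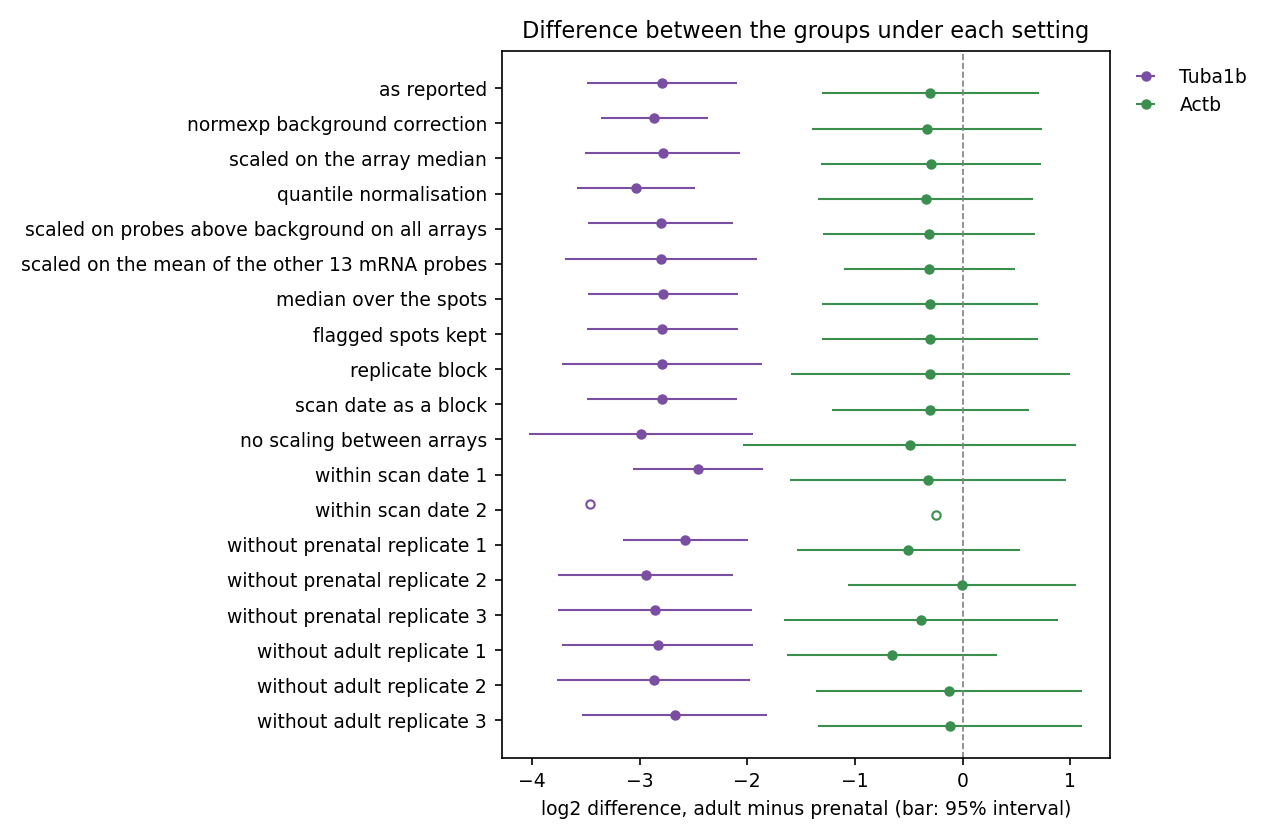
Log2 difference, adult minus prenatal, of Tuba1b (purple) and Actb (green) as reported and under each alternative setting, with limma's 95% interval; open points come from 1 array a group and have none. The Tuba1b values run from -3.46 to -2.46 and the Actb values from -0.65 to -0.0054, with wide Actb intervals. The genes were chosen on this contrast and every setting draws on the same 6 arrays, so the intervals are a description.

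The genes most like each member over the 6 arrays were taken from the other 14, by Pearson correlation and as a description. Tuba1b was followed most closely by Tfrc (r = 0.988), then by Hprt, a purine salvage enzyme (r = 0.865), and Rpl13a, a ribosomal protein (r = 0.832). Since the Tuba1b arrays form one block for each group, these values mostly restate that the genes were lower in the adult: the log2 difference was -3.62 for Tfrc, -0.57 for Hprt and -0.38 for Rpl13a. Tfrc, the single one of 8 listed erythroid markers with a named probe, had log2 signals of 7.97 to 8.23 on prenatal and 4.28 to 4.75 on adult arrays. Its part in the Tuba1b difference was not tested, and in whole-liver RNA fewer cells of a type and less RNA per cell cannot be told apart.

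Actb was most like Tbp, the TATA-binding protein (r = 0.893), Nono, a nuclear RNA-binding protein (r = 0.835), and Ppia, a peptidyl-prolyl isomerase (r = 0.786). All 3 were also highest on the 2 brightest arrays, so these r values partly restate that pattern. By Spearman rho, Nono (0.486) was less like Actb than Hprt (0.714) was. On Tbp the resemblance is plain in the arrays: its values were -1.07, 0.58 and 0.14 on prenatal and 0.26, -0.80 and -0.74 on adult replicates 1, 2 and 3, again highest on prenatal replicate 2 and adult replicate 1. Its low values were read near background, however. The median Tbp spot had an intensity of 34.5, 41.3 and 45.9 on prenatal replicate 1, adult replicate 2 and adult replicate 3. There the spot signal was 2.50, 3.07 and 2.99 times the background. The log2 difference between the groups was -0.31 for Tbp, 0.14 for Nono and 0.05 for Ppia, each with overlapping groups. Between Actb and Tuba1b themselves r was 0.242.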

How the data were processed

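The authors deposited scanner output of 6 arrays, made according to the submitters' processing notes with Agilent Feature Extraction 11.0.1.1. In it the authors' software had subtracted the background (per the file headers) to give the deposited processed signal, an intensity for each spot on a linear scale. The spots also carry flags for outliers and for lying well above background, per the file headers. The authors also deposited a table of log2 values for 17307 probes, which holds 0 of the member probes and was not used further; its normalisation is not given in the sources used here.

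Groups came from the sample titles. Main values were log2 processed signals minus the log2 of each array's 75th percentile over non-control spots; flagged spots (6 of 120 for Tuba1b, 9 of 120 for Actb) were left out and the rest averaged. Probes well above background on at least 3 of 6 arrays were fitted with limma 3.58.1 in R 4.3.3 (lmFit, eBayes, Benjamini-Hochberg adjustment, threshold 0.05), after the fit had been tested on simulated data. The number of arrays limits the precision. All 15 accessions matched a gene in a RefSeq table of another build than the array design's, so no coordinates are given.

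The members, lists and tests were chosen with earlier results of these data known. Named besides the members were the 3 genes most like each by Pearson correlation, Gapdh and Tfrc. B2m, Hsp90ab1, Gusb, Ldhal6b and G6pd2 were named after their values were seen. Alternatives were normexp background correction (on median spot signals, because mean signals were not at hand), scaling, spot summary, flags, filters, blocks for replicate number and scan date, and leaving out each array. Same-numbered arrays deviated oppositely (correlations -0.525, -0.349 and -0.313), so the numbers were not taken to pair them.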

Additional observations from a re-analysis of the deposited data

How the results depend on the processing

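Under 18 alternatives each, Tuba1b stayed negative, from -3.46 to -2.46, Actb stayed negative, from -0.65 to -0.0054, and the ratio of Tuba1b to Actb changed by -3.21 to -2.07. Omitting the scaling between arrays, chosen after the data were seen, gave -2.99 and -0.49. Beyond the spread between replicates moved only the Tuba1b values within one scan date, -2.46 and -3.46; the cause was not tested. Fits that each left out 1 array gave -2.94 to -2.58 for Tuba1b, -0.65 to -0.0054 for Actb and -2.94 to -2.07 for the ratio.

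Each sample number held as many prenatal as adult arrays, so a replicate block could not move the differences (-2.79 and -0.30) or the ratio (-2.49). With it the standard errors were 0.36 and 0.50, and 4505 probes were called over the array instead of 8987. That count was 5957 of 22848 tested probes when only probes above background on all 6 arrays were kept, against 8987 of 32336. When each array was left out, the count was 5313 to 11561. It was lowest without adult replicate 2 and also fell by over 1.5 times without adult replicate 1 (5697) and adult replicate 3 (5387). The spread over Actb spots, adult minus prenatal, was -0.0052 and turned to 0.0031 without prenatal replicate 3; without each array it ranged from -0.0132 to 0.0031. For Tuba1b it was -0.0094, and -0.0190 to -0.00030 without each array.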

Other observations

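Actb was among the probes whose signal had a strong relation to array brightness, in either direction. Over 32250 tested probes with a value on every array, the size of the Pearson r with the log2 of the raw 75th percentile was at or above the 0.949 of Actb for 250 probes, Actb included. The median signed r of these 32250 probes was -0.040. This is a description over probes read on the same 6 arrays.

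Of 32249 other probes, 3123 (9.68%) had an r of at least 0.9 with Tuba1b over the 6 arrays, and 418 (1.30%) had one with Actb. Because Tuba1b forms one block for each group, and was chosen on that contrast, any probe that is clearly higher before birth correlates with it, so its count largely restates the group difference. The files pair none of the probes outside the 15 with a gene, so no names are given.

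On prenatal replicate 1, the brightest spot of a negative probe had an intensity of 207.6, and on the other arrays 15.6 to 125.3. The lowest Actb spot on that array had an intensity of 503.3.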
